A study of Mus musculus with 4 samples.

Results

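The 10 genes described here are Msln, Upk3b, Upk1b, Wt1 and Lrrn4, which are known from mesothelium, and Slurp1, Sprr1a, Krt5, Krt15 and Krt19, which are known from squamous, basal or simple epithelia. All 10 were found by symbol in the deposited table of 17780 genes. The set was picked on measured values, because Lrrn4, Slurp1 and Sprr1a were among the genes with the largest excess of the combination library over the amiodarone library. That comparison is therefore given as a description only, and no other comparison that uses the amiodarone or the combination library is independent of the choice. Dabigatran against vehicle uses neither of them.

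The lungs came from male C57BL/6 mice, given as C57BL/6J in the methods, bought at an age of 6 to 7 weeks, with no genetic modification described. The vehicle group received carboxymethylcellulose orally, the amiodarone group amiodarone at 300 mg per kg, the dabigatran group dabigatran etexilate at 60 mg per kg, and the amiodarone + dabigatran group both drugs at these doses. Treatment was given 5 times per week for 4 weeks. Amiodarone is an antiarrhythmic drug that can injure the lung, and dabigatran inhibits thrombin. Polyadenylated RNA of the left lung was sequenced in 1 library per group, and the libraries held between 17498486 and 18903401 estimated reads. The methods place tissue collection on day 26, whereas the labels give 28 days of treatment. The sources used here do not say whether a library came from 1 mouse or from several. Without replicates, the spread between animals is unknown, no p-value was computed, and every difference below is one between libraries.

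The mesothelium is the single layer of flat cells that covers the lung as the visceral pleura and lines the chest wall, the heart sac and the abdominal cavity. Its cells make a lubricating surface coat, carry keratins like an epithelium and descend from mesoderm, and the transcription factor Wt1 marks them during development. Squamous epithelia renew from a basal layer with Krt5 and Krt15 and end in flattened cells with a crosslinked protein shell, the cornified envelope, to which small proline-rich proteins such as Sprr1a belong. The normal lung of a mouse holds basal cells mainly in the large airways. In whole lung RNA, fewer cells of a type and less RNA per cell cannot be told apart.

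Promoter sequences are shown for Lrrn4 and Upk3b, the mesothelial genes for which the reference table held one, and for Sprr1a, whose levels followed another order. Of the 10 genes 4 were matched in that table, and the promoter not shown is that of Krt5, which was nearly undetected. Each line gives the 250 bases before the start of the gene from 5′ to 3′ on its own strand, from RefSeq for GRCm38.p6. The windows are chr2:132880863-132881112 on the minus strand for Lrrn4, which lies inside the RefSeq span of that gene and before an internal start, chr5:136038246-136038495 on the plus strand for Upk3b, and chr3:92485882-92486131 on the minus strand for Sprr1a. Capitals mark matches to the AP-1 motif TGANTCA, the TEAD motif GGAATG and the TATA motif TATAAA, searched on both strands.
Lrrn4: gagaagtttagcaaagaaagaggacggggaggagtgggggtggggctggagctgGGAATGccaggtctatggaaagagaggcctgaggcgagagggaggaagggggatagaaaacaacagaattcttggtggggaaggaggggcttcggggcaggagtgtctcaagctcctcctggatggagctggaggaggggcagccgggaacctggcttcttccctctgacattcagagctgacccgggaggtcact
Upk3b: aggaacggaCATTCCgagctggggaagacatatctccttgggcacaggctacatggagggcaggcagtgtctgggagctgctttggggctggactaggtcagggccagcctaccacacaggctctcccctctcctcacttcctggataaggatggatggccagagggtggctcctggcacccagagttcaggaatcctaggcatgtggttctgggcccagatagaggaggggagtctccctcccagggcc
Sprr1a: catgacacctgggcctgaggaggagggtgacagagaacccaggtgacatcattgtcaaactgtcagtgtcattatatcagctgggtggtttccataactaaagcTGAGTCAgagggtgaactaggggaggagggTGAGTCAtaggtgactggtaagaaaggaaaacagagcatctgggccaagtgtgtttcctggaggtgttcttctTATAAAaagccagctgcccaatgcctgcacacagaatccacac

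The Sprr1a window held AP-1 matches at 146 and 116 bases and a TATA match at 43 bases before the start. Lrrn4 and Upk3b had neither of these and held a TEAD match each, at 196 and at 241 bases before the start. Among all 32851 windows of the same length in the table, 6.75% held the AP-1 motif, 12.6% the TEAD motif and 12.4% the TATA motif. A match is a stretch of letters and not a binding site, and the absence of a match concerns only these letters in this window.

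Levels are given as FPKM, which scales fragments by transcript length and by library size and allows genes to be compared per length. A ratio between libraries is called beyond counting error when its exact 95% confidence interval, computed from the estimated reads, excludes 1. These intervals cover counting error only, not differences between mice. For comparisons over many genes, genes were kept when either library held at least 1 FPKM, and differences were taken on the log2(FPKM + 1) scale, which understates those of low genes. Of the 10 members, 8 reached 1 FPKM in either library of every comparison, and Krt5 and Krt15 did not reach it in any library. Wt1 passed only through the libraries other than amiodarone.

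All 5 mesothelial members were lower in the amiodarone library than in each of the other libraries. Upk3b, a uroplakin that mesothelial cells carry on their surface, lies at chr5:136038496-136044993 on the plus strand. It measured 44.58 FPKM in the vehicle library, 19.41 under amiodarone, 44.48 under dabigatran and 45.21 under both drugs. The amiodarone library stood alone, and the other libraries lay within counting error of each other. The ratio of amiodarone to vehicle was 0.435 (95% CI 0.398 to 0.476).

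Lrrn4, a membrane protein with leucine-rich repeats that is used to recognise mesothelial cells, lies at chr2:132866686-132894010 on the minus strand. Its level was 12.92 FPKM in the vehicle library and 4.42 under amiodarone, with 14.71 under dabigatran and 13.85 under the combination. Again only the amiodarone library was low. The ratio of amiodarone to vehicle, 0.342 (95% CI 0.302 to 0.387), was the lowest among the members with at least 1 FPKM, and 17 of 13402 genes had a lower difference. This place is not independent of the choice of Lrrn4, which used the amiodarone library. The 364 estimated reads of Lrrn4 in the amiodarone library correspond to 82.4 reads per FPKM, against 70.5 in the vehicle library, a wider gap than the 38.6 against 36.1 of Msln. From reads divided by the library total, the ratio was 0.373.

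Msln encodes mesothelin, a glycoprotein anchored to the mesothelial cell surface, at chr17:25748613-25754378 on the minus strand. Its values were 35.72 FPKM in the vehicle library, 21.89 under amiodarone, 32.75 under dabigatran and 44.94 under the combination. The neighbours in this order all differed beyond counting error, so that Msln was the mesothelial member with a clear highest library, the combination. Amiodarone stood at 0.613 of vehicle (95% CI 0.561 to 0.669) and the combination at 1.37 of dabigatran (95% CI 1.27 to 1.48).

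Upk1b, a tetraspanin of the uroplakin plaques of the bladder that mesothelium also expresses, lies at chr16:38773182-38800203 on the minus strand. It measured 28.70 FPKM in the vehicle library, 20.13 under amiodarone, 29.28 under dabigatran and 29.07 under both drugs. The ratio of amiodarone to vehicle was 0.701 (95% CI 0.633 to 0.778), the mildest among the mesothelial members. Wt1, the zinc finger transcription factor of the list, lies at chr2:105126529-105173614 on the plus strand and had 1.35, 0.58, 1.46 and 1.58 FPKM in the vehicle, amiodarone, dabigatran and combination libraries. Only 33 to 91 estimated reads stood behind these values, and the ratio of amiodarone to vehicle, 0.430, had a wide interval from 0.276 to 0.657. For both genes the libraries other than amiodarone did not differ beyond counting error.

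**Figure D1:**
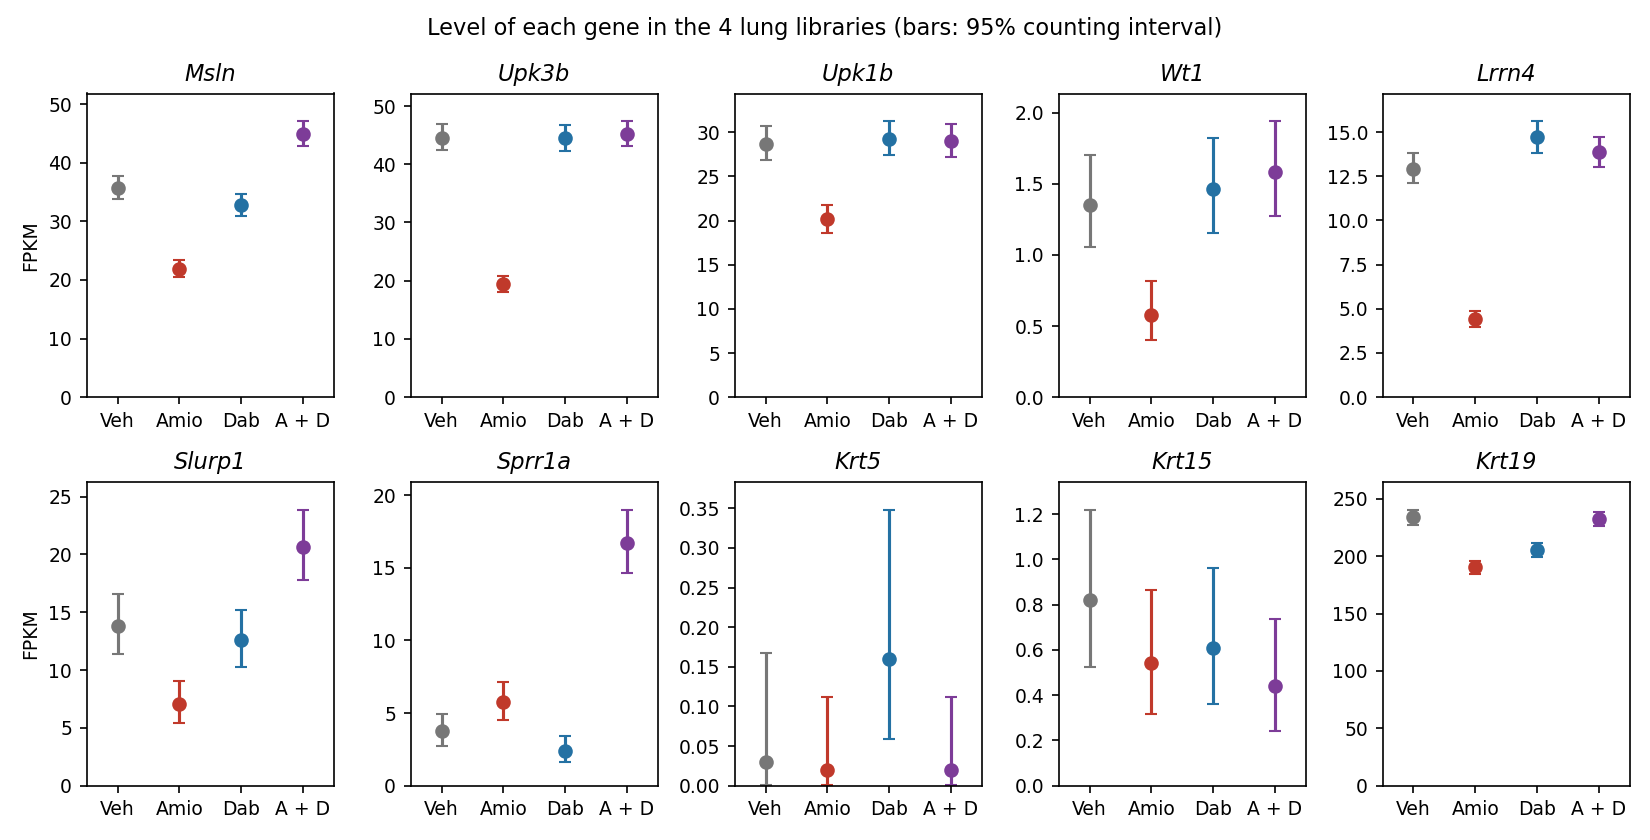
Level in FPKM (vertical axis, linear from 0, a separate scale in each panel) of the 10 genes in the vehicle (Veh), amiodarone (Amio), dabigatran (Dab) and amiodarone + dabigatran (A + D) libraries; points are the single library of each group and bars the exact 95% Poisson counting interval. In the upper row the amiodarone point is the lowest for all 5 mesothelial genes, for example 19.41 FPKM against 44.48 to 45.21 for Upk3b, while Sprr1a is highest with the combination at 16.71 FPKM.

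Among the squamous and basal members, Slurp1 and Sprr1a were highest in the combination library. Slurp1 is a small secreted protein of the Ly6 family that keratinocytes release and that modulates nicotinic acetylcholine receptors, and its gene lies at chr15:74726644-74728023 on the minus strand. It measured 13.81 FPKM in the vehicle library, 7.08 under amiodarone, 12.56 under dabigatran and 20.66 under the combination. Vehicle and dabigatran did not differ beyond counting error, amiodarone lay below them and the combination above them. The ratio was 0.513 (95% CI 0.370 to 0.705) for amiodarone against vehicle and 1.65 (95% CI 1.29 to 2.11) for the combination against dabigatran, from 62 to 183 estimated reads per library.

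Sprr1a, a precursor of the cornified envelope, lies at chr3:92483954-92485881 on the minus strand. Its level was 3.74 FPKM in the vehicle library, 5.75 under amiodarone, 2.39 under dabigatran and 16.71 under the combination. It was the member that was higher with amiodarone than with vehicle, at a ratio of 1.54 (95% CI 1.06 to 2.25), and the combination exceeded every other library. Against dabigatran alone the combination stood at 6.99 (95% CI 4.79 to 10.5), from 232 and 31 estimated reads, and 13366 of 13379 genes had a lower difference. Sprr1a was picked for a high value in the same combination library, which favours such a place, so it is a description only. Dabigatran against vehicle gave 0.639 (95% CI 0.393 to 1.03), which did not pass counting error.

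The keratins differed in level by orders of magnitude. Krt19, a keratin of simple epithelia including mesothelium and airway epithelium, lies at chr11:100140810-100145926 on the minus strand and measured 233.92, 190.16, 205.68 and 232.49 FPKM in the vehicle, amiodarone, dabigatran and combination libraries. The amiodarone library was the lowest and the vehicle and combination libraries did not differ beyond counting error. The difference was small, with a ratio of 0.813 (95% CI 0.780 to 0.847) for amiodarone against vehicle and 1.13 (95% CI 1.09 to 1.18) for the combination against dabigatran.

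The basal keratin Krt15, at chr11:100131759-100135949 on the minus strand, had 0.82, 0.54, 0.61 and 0.44 FPKM in the same order. With 14 to 24 estimated reads per library, no library differed from the next in this order beyond counting error. Its ratio of amiodarone to vehicle was 0.659, with an interval from 0.332 to 1.28. Krt5, at chr15:101707069-101712905 on the minus strand, had 1, 1, 6 and 1 estimated reads. A count of 0 allows up to 3 reads, and no ratio is given for Krt5.

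The labels were checked against markers. All 5 mesothelial members were detected, with Wt1 lowest at 0.58 to 1.58 FPKM, and Calb2 was nearly absent. Of 20 further basal and squamous genes in the table, 10 reached 1 FPKM in a library. Among these, Ly6d, Perp, Sfn, Dsp and Sbsn had 34.17, 20.85, 17.82, 15.46 and 8.66 FPKM in the vehicle library. Perp, Sfn and Dsp are also expressed by other epithelia. By contrast, the transcription factor Trp63 and the keratin Krt14, which define basal cells, had 15 to 29 and 1 to 13 estimated reads, and Krt4, Krt13 and Krt17 had at most 6 reads in any library. Krt6a, Krt6b, Krtdap and Cnfn were also on the list but were not found by symbol in the deposited data, so nothing is said of their levels. With genes of the list both present and nearly absent, Slurp1 and Sprr1a are described by their own names, and no squamous cell type is inferred from them.

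In the comparison of amiodarone with vehicle, 7 of the 10 members were lower and 1 was higher beyond counting error, against 30.1% and 19.6% of the 13402 genes tested. At 1.5-fold, Msln, Upk3b, Lrrn4 and Slurp1 were lower and no member was higher, against 3.93% and 4.34% of genes. The median log2 difference was -0.68 for the mesothelial members and -0.05 for all genes. Lrrn4, at -1.36, Upk3b, at -1.16, and Slurp1, at -0.87, lay in the lower tail of all genes, while Krt19, at -0.30, had 16.1% of genes below it. Lrrn4 and Slurp1 were picked for a low amiodarone value relative to the combination, which favours such a place. The counts and places in this comparison are therefore a description only.

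Dabigatran alone gave little difference from vehicle. Lrrn4 was higher, at 1.14 (95% CI 1.04 to 1.25), and Msln and Krt19 were lower, at 0.917 (95% CI 0.847 to 0.993) and 0.879 (95% CI 0.844 to 0.916). These counts, 1 higher and 2 lower of 10, stood beside 15.2% and 13.4% of 13373 genes and were close to that background. No member reached 1.5-fold in either direction, nor did most genes, of which 0.449% were higher and 0.508% lower. The ratios of Upk3b, 0.998 (95% CI 0.930 to 1.07), and Upk1b, 1.02 (95% CI 0.928 to 1.12), bound a difference of these genes to less than 1.5-fold between these libraries.

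**Figure D2:**
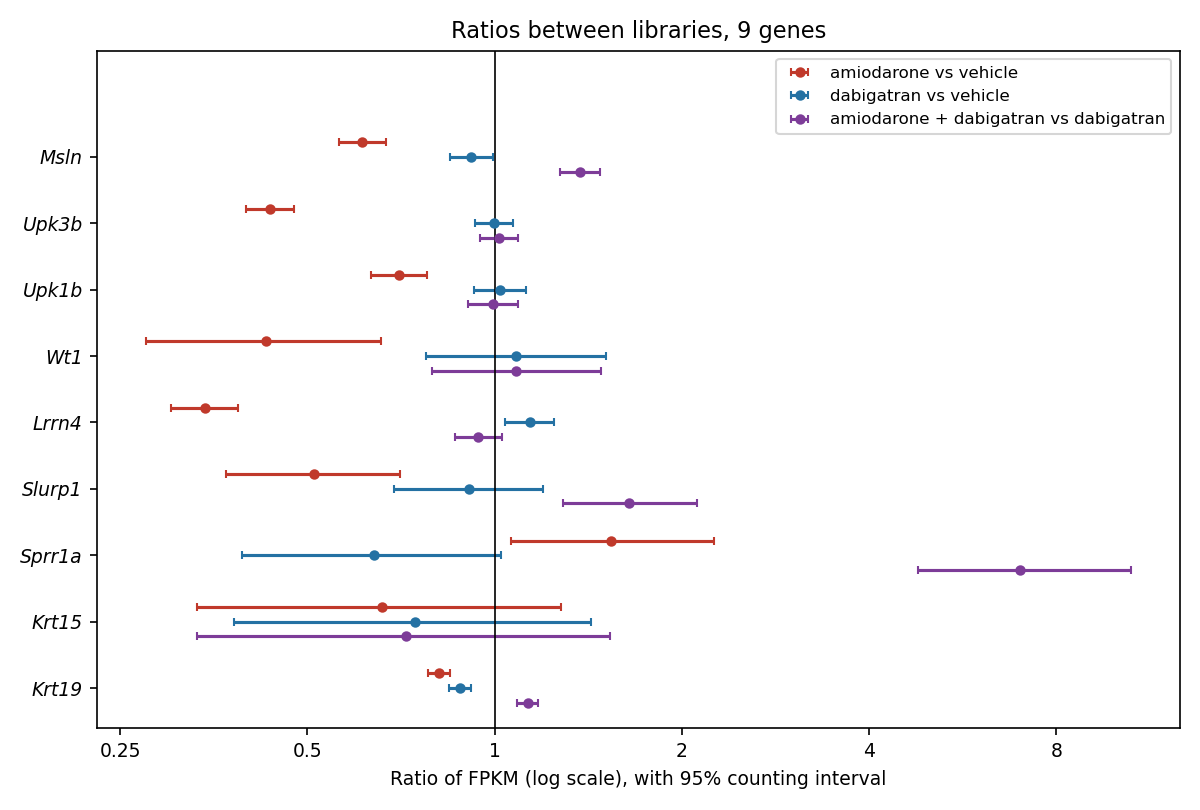
Ratio of FPKM between libraries (horizontal axis, log scale) for 9 genes, Krt5 being left out for its few reads, with points for the ratio and bars for the exact 95% counting interval; red is amiodarone against vehicle, blue dabigatran against vehicle and purple the combination against dabigatran. Red points of the 5 mesothelial genes lie between 0.342 and 0.701, their blue points between 0.917 and 1.14, and the purple point of Sprr1a lies at 6.99.

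When amiodarone was given on top of dabigatran, no mesothelial member was lower than with dabigatran alone beyond counting error. Comparing the combination with dabigatran, 4 members (Msln, Slurp1, Sprr1a and Krt19) were higher beyond counting error and 0 were lower, against 19.5% and 23.5% of 13379 genes. At 1.5-fold, Slurp1 and Sprr1a were higher and 0 members were lower, against 3.25% and 2.04% of genes. Both genes were picked for a high value in the combination library, so the counts of higher members are a description only. The ratios were 1.02 for Upk3b (95% CI 0.948 to 1.09), 0.993 for Upk1b (95% CI 0.905 to 1.09), 0.942 for Lrrn4 (95% CI 0.864 to 1.03) and 1.08 for Wt1 (95% CI 0.792 to 1.48). From reads divided by the library total, Lrrn4 stood at 0.910, which passed counting error. The median log2 difference of the mesothelial members was 0.02.

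The comparison by which the set was chosen, the combination against amiodarone alone, gave the following values. Lrrn4 stood at 3.13, Slurp1 at 2.92 and Sprr1a at 2.91 times their amiodarone level, followed by Wt1 at 2.72, Upk3b at 2.33, Msln at 2.05, Upk1b at 1.44 and Krt19 at 1.22. On the log2(FPKM + 1) scale, the differences of Lrrn4, Slurp1 and Sprr1a were 1.45, 1.42 and 1.39, and 13257, 13256 and 13255 of 13261 genes had a lower one. Beyond counting error, 8 members were higher and 0 lower, where all genes gave 21.2% and 15%, and at 1.5-fold 6 were higher and 0 lower, where all genes gave 1.06% and 1.22%. Since the choice used this comparison, nothing is read from these counts. Krt15, at 0.815 (95% CI 0.372 to 1.76), did not differ beyond counting error.

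**Figure D3:**
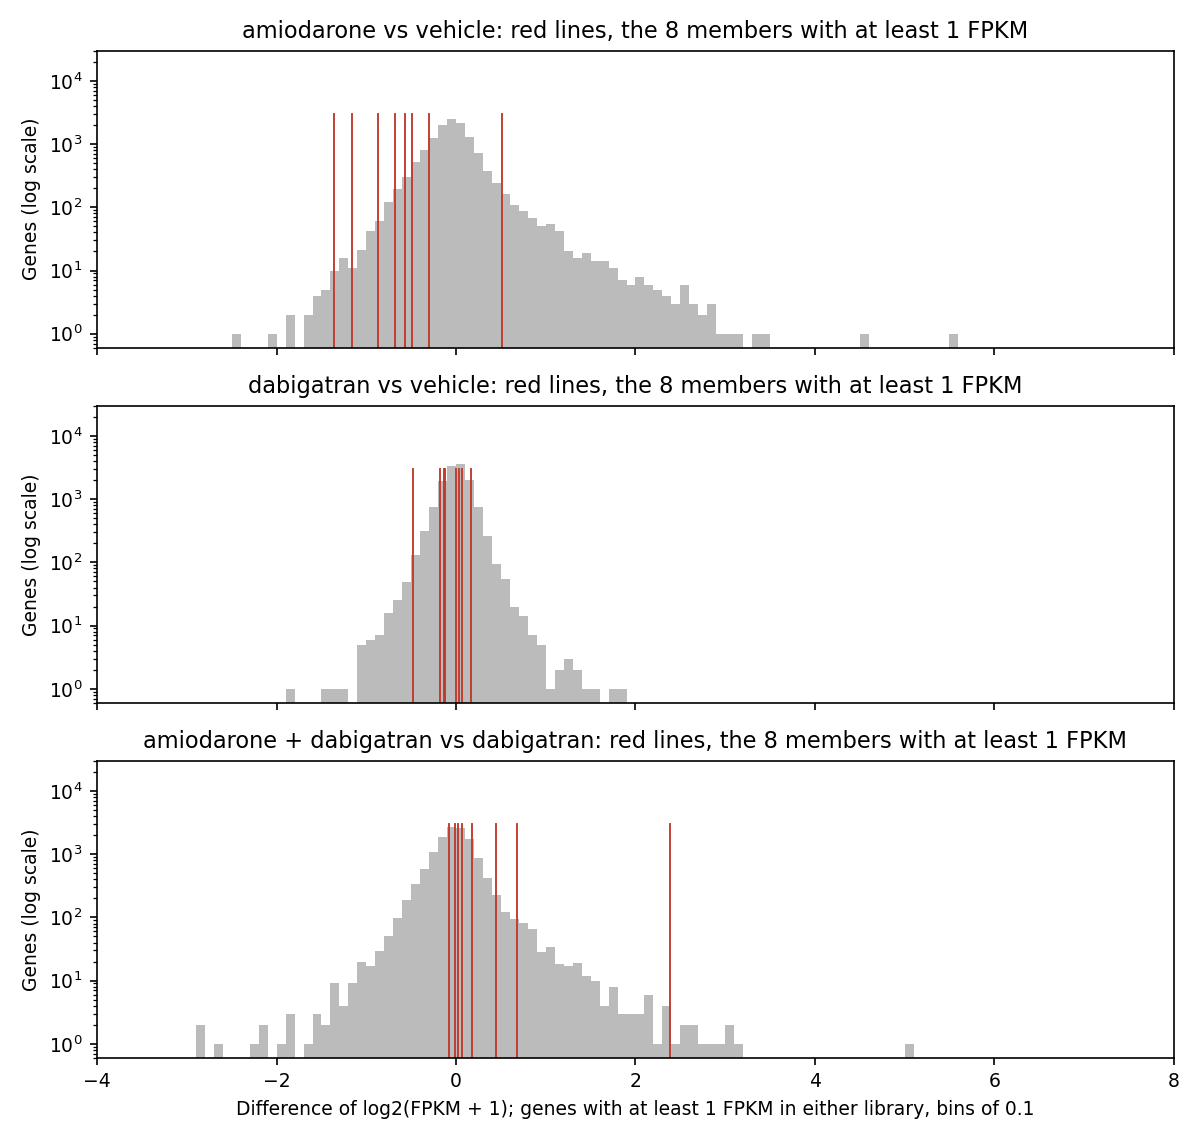
Numbers of genes (vertical axis, log scale) by difference of log2(FPKM + 1) in bins of 0.1 (horizontal axis) for amiodarone against vehicle, dabigatran against vehicle and the combination against dabigatran, over genes that reach 1 FPKM in either library; red lines mark the 8 members that reach it. In the upper panel 7 lines lie below 0, down to -1.36 for Lrrn4, and in the lower panel the line farthest to the right is Sprr1a at 2.39.

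Further genes known from mesothelium were also lowest in the amiodarone library. The list was chosen with earlier results of these data known and shares the amiodarone library with the rule, so it is a description and not independent support. Of 12 such genes in the table, 10 reached 1 FPKM in a library, and all 10 were lowest with amiodarone, Muc16 having reached it only in the combination library. By the ratio of FPKM itself, with nothing added, which calls more of the low genes than the log2(FPKM + 1) scale, 5 of them were at least 1.5-fold below each other library. Over all 13536 genes with at least 1 FPKM in a library, 37.4% were lowest with amiodarone and 1.27% were at least 1.5-fold below each other library by the same ratio. Among the 5 mesothelial members all were lowest with amiodarone and 3 (Upk3b, Wt1 and Lrrn4) were below by that much, Wt1 not being called at 1.5-fold on the log2(FPKM + 1) scale.

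Aldh1a2, which makes retinoic acid in mesothelium, measured 16.97 FPKM in the vehicle library, 6.11 under amiodarone, 13.33 under dabigatran and 14.27 under both drugs. Amiodarone was the low library, at 0.360 of vehicle (95% CI 0.310 to 0.417). Rspo1, an enhancer of Wnt signalling, followed the same pattern with 12.52, 6.99, 12.46 and 11.74 FPKM. Cldn15, a tight junction claudin, had 7.79, 4.90, 8.84 and 10.35 FPKM, and Pkhd1l1, a large membrane protein, had 2.64, 1.09, 2.35 and 2.27 FPKM. In both the amiodarone library was again the lowest.

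Between amiodarone and vehicle, 9 genes of this list had at least 1 FPKM in either of these libraries. All 9 were lower beyond counting error and 4 of them at 1.5-fold, against 30.1% and 3.93% of all genes. Their median log2 difference was -0.58. The median was 0.01 for dabigatran against vehicle and 0.00 for the combination against dabigatran. Gpm6a and Ptgis, which other lung cells also express, differed least, at 0.872 and 0.902 of vehicle. The transcription factor Bnc1 remained lower with the combination than with dabigatran, at 1.02 against 1.48 FPKM, a ratio of 0.689 (95% CI 0.519 to 0.913). Gpm6a was lower as well, at 23.46 against 29.76 FPKM. In that comparison 2 of 10 genes of the list were lower and 1 higher beyond counting error, against 23.5% and 19.5% of all genes. Calb2, which encodes the mesothelial marker calretinin, was at 0 reads in 3 libraries and at 1 read in the combination library.

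**Figure D4:**
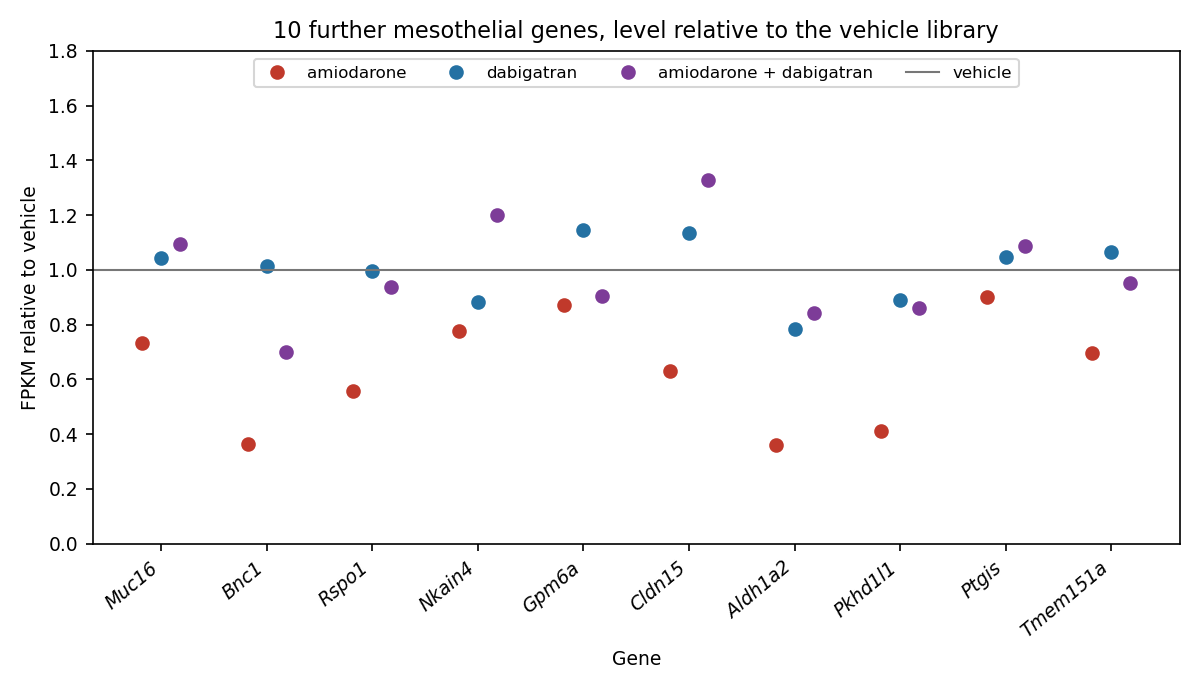
FPKM relative to the vehicle library (vertical axis, linear) of the 10 further mesothelial genes with at least 1 FPKM in a library (horizontal axis), for amiodarone (red), dabigatran (blue) and the combination (purple); the grey line marks the vehicle level. The red point is the lowest for each gene, from 0.360 for Aldh1a2 to 0.902 for Ptgis.

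The remaining uroplakins had low levels. Upk2 measured 3.15 FPKM in the vehicle library, 1.44 under amiodarone, 3.31 under dabigatran and 2.07 under both drugs, and Upk1a and Upk3a stayed below 2 FPKM. All 3 were lower with amiodarone than with vehicle beyond counting error, against 30.1% of all genes. Unlike Upk3b, Upk2 was lower in the combination than in the dabigatran library, at 0.625 (95% CI 0.387 to 0.999). The simple epithelial keratins that pair with or accompany Krt19 differed little, with ratios of amiodarone to vehicle of 0.821 for Krt7, 0.945 for Krt8 and 0.829 for Krt18.

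Of the cornified envelope genes other than Sprr1a, the 3 with at least 1 FPKM in a library did not share its order. Of 19 symbols listed, 10 were found in the table, and 3 of these reached 1 FPKM in a library. Sprr1b, Sprr2b, Sprr2d, Sprr2e, Sprr2f, Sprr2h, Sprr3 and Sprr4 were not found by symbol, so nothing is said of their levels. Tgm1, the transglutaminase that crosslinks the envelope, measured 1.55 FPKM in the vehicle library, 3.24 under amiodarone, 1.54 under dabigatran and 2.15 under both drugs, and was highest with amiodarone alone. The scaffold proteins Evpl and Ppl were lower with amiodarone than with vehicle, at 0.710 and 0.867. Involucrin, Ivl, another precursor of the envelope, which lies within 100 kb of Sprr1a, had 8, 12, 9 and 31 estimated reads in the vehicle, amiodarone, dabigatran and combination libraries. It was outside the rule for named genes and chosen after its values were seen. Its ratio of the combination to dabigatran was 3.22 (95% CI 1.5 to 7.7), at levels below 1 FPKM. Tgm3, likewise outside that rule, had 3, 4, 9 and 17 estimated reads in the same order and was also highest with the combination. Lor, Flg, Sprr2a1 and Sprr2a2, also below 1 FPKM, were not. Sprr2a1 and Sprr2a2 had identical values in every library, which makes their reads uncertain as those of near-identical copies.

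Slurp1 lies in a cluster of Ly6 genes on chromosome 15, and no neighbour of the Ly6 family within 100 kb was highest in the combination library as Slurp1 was. Ly6d, a surface protein of keratinocytes and B cell precursors, measured 34.17 FPKM in the vehicle library, 10.61 under amiodarone, 26.62 under dabigatran and 22.08 under both drugs. The combination stood at 0.830 of dabigatran (95% CI 0.700 to 0.982), where Slurp1 stood at 1.65. Lypd2 had 141.05, 55.92, 132.32 and 64.91 FPKM, with both libraries that received amiodarone low. Slurp2 had 3.09, 0.79, 2.08 and 2.34 FPKM from 6 to 22 estimated reads. Them6, which overlaps Slurp1 by 322 bases on the opposite strand in the GENCODE annotation of this build, had 17.22, 12.37, 15.22 and 16.85 FPKM. Whether the counting used strand is not given in the sources used here, so part of the reads of this overlap may belong to either gene.

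Some genes that are not members had profiles near the mean profile of the mesothelial or of the squamous and basal members. Among 1634 genes whose mean reached 1 FPKM and whose range reached 1.5-fold, likeness was measured as the Euclidean distance between centred log2(FPKM + 1) profiles over the 4 libraries. The nearest to the mean of the mesothelial members were Chst4, at a distance of 0.11, Klra8 at 0.16, Lrat at 0.17, Nrgn at 0.19 and Gm33370 at 0.20. Chst4, a sulfotransferase, measured 5.93, 3.01, 5.69 and 6.76 FPKM in the vehicle, amiodarone, dabigatran and combination libraries. Lrat, which esterifies retinol for storage, measured 9.44, 5.67, 10.82 and 12 FPKM. The nearest to the mean of the squamous and basal members were Hvcn1, Ccdc159, Tmem40, Smpd3 and Nkain4, at distances of 0.09 to 0.16. That mean joins genes of unlike order, Sprr1a being lowest with dabigatran and Slurp1 and Krt19 lowest with amiodarone. It also includes the low Krt5 and Krt15, so a gene near it need not follow any single member. Nkain4 is a gene of the wider mesothelial list. Over 4 libraries such likeness is a description and says nothing of shared control.

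Markers of other cell types and tissues also differed between the libraries. Of the 7 adipocyte genes in the table, 5 reached 1 FPKM, and these were all lowest with amiodarone, against 37.4% of all genes. The summed level of the adipocyte list was 83.43 FPKM in the vehicle library, 30.53 under amiodarone, 131.2 under dabigatran and 56.48 under both drugs. Cfd, the adipocyte protease adipsin, carried most of it, with 62.81, 21.32, 106.41 and 41.52 FPKM. In contrast to the mesothelial members, the adipocyte genes were also lower in the combination than in the dabigatran library. The median log2 difference was -0.76, and 4 of 5 genes were lower beyond counting error, against 23.5% of all genes.

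The 7 cardiac muscle genes summed to 1704 FPKM in the vehicle library, 907.2 under amiodarone, 1168 under dabigatran and 796.8 under both drugs, and the 6 skeletal muscle genes to 40.32, 23.79, 41.99 and 16.67 FPKM. Both sums were lowest in the combination library, though not every gene was. Ckm carried most of the skeletal sum, with 34.20, 17.08, 31.55 and 12.28 FPKM, while Mylpf was highest with the combination, at 2.36 FPKM from 33 reads. The cardiac gene Actc1 was lowest with amiodarone. In the combination library the mesothelial members summed to their highest level, 134.7 FPKM, against 123.3 with vehicle, 66.43 with amiodarone and 122.7 with dabigatran. Of these members, Msln was higher with the combination than with vehicle, at 1.26 (95% CI 1.17 to 1.35). Upk3b, Upk1b, Wt1 and Lrrn4 lay within counting error of vehicle. The sums for club cells, the secretory cells of the airway, were 130300, 77840, 104500 and 101900 FPKM, and the ciliated cell sums were 676.8, 455.9, 603.4 and 523.2 FPKM. These airway sums were lowest with amiodarone, as were 3 of 4 club cell and 3 of 5 ciliated cell genes, against 37.4% of all genes. Scgb3a2, Foxj1 and Dnah5 were lowest in the combination library. Scgb1a1 carried most of the club cell sum, and Tppp3 most of the ciliated cell sum. Fibroblast markers summed to 431.6, 327.8, 478.3 and 335.5 FPKM, low in both libraries that received amiodarone, though not every gene was. Pdgfra had 42.04, 39.14, 43.54 and 45.06 FPKM and was highest with the combination. Pi16 did not differ beyond counting error between amiodarone and vehicle, at 0.920 (95% CI 0.823 to 1.03).

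The sums of the alveolar lists were nearly level, with 4312 to 4513 FPKM for type 1 and 24870 to 26770 FPKM for type 2 cells. Ager carried most of the type 1 sum and Sftpc most of the type 2 sum. Single genes differed more with amiodarone, with Sftpa1 at 1.36, Pdpn at 1.26, Abca3 at 0.877 and Vegfa at 0.836 of vehicle. Macrophage markers summed to 144.7 FPKM in the vehicle library, 863.5 under amiodarone, 169.8 under dabigatran and 1090 under both drugs, and were thus high in both libraries that received amiodarone. Chil3 carried most of this sum, with 90.27, 731.20, 113.43 and 940.25 FPKM. The remaining markers stood between 1.72 (Mertk) and 2.70 (Cd68) times vehicle with amiodarone. Marco, with 1.66, 4.39, 4.41 and 12.23 FPKM, was also higher with dabigatran alone, at 2.66 of vehicle (95% CI 1.94 to 3.68). Chil3 and Mertk were higher with dabigatran as well, at 1.26 and 1.22, whereas Cd68, Adgre1 and Itgax did not differ beyond counting error. The thymocyte list, of which 2 genes reached 1 FPKM, summed to between 9.01 and 12.52 FPKM. The transcription factors of serosal and mesenchymal cells other than Wt1 had sums of 94.43, 84.42, 109 and 95.73 FPKM, but single genes differed more. Beyond counting error, 3 of 5 were lower with amiodarone than with vehicle and 0 were higher, against 30.1% and 19.6% of all genes. Gata4 stood at 0.543 and Gata6 at 0.748 of vehicle. With the combination, 3 of 4 were lower than with dabigatran and 0 were higher, against 23.5% and 19.5% of all genes. In that comparison Gata4 was at 0.636 and Gata6 at 0.811. The part of these lists in the levels of the mesothelial members was not tested.

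**Figure D5:**
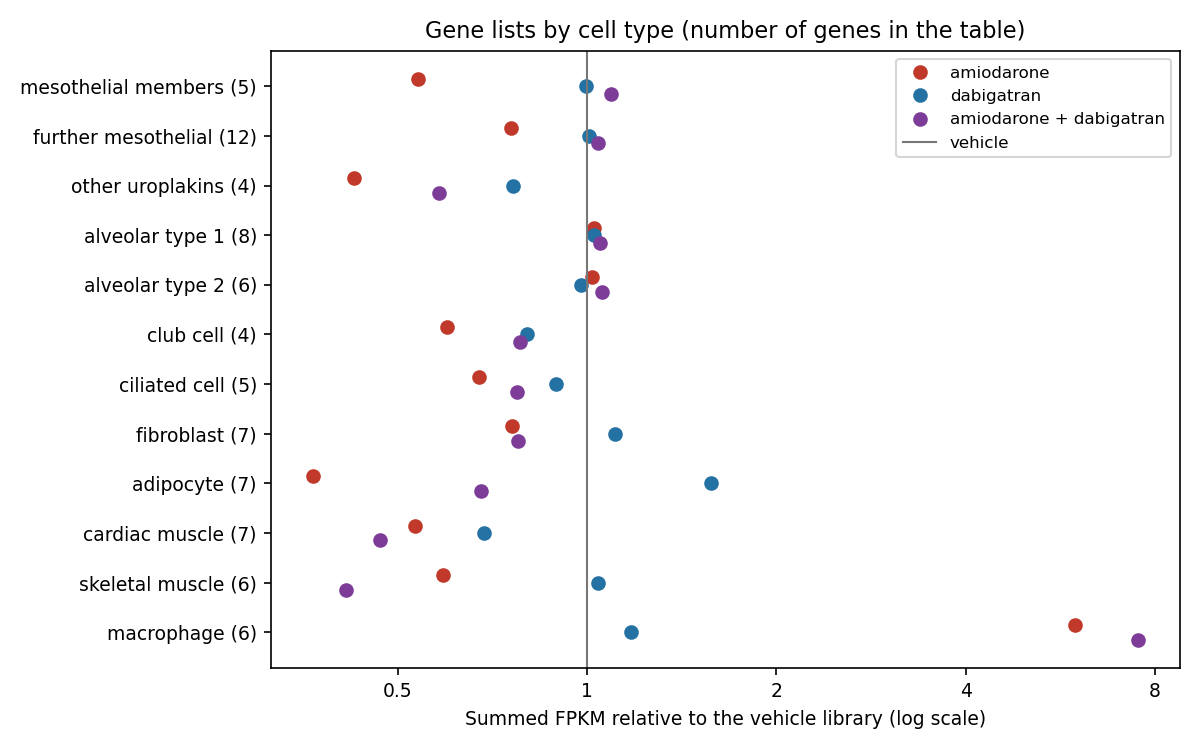
Summed FPKM of each marker list relative to the vehicle library (horizontal axis, log scale) for amiodarone (red), dabigatran (blue) and the combination (purple), with the number of genes of each list in the table in brackets; the grey line marks vehicle. The mesothelial members lie at 0.539 with amiodarone and at 1.09 with the combination, while the adipocyte list lies at 0.366 and 0.677. The macrophage list, whose sum is mostly Chil3, lies at 5.97 and 7.53.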

How the data were processed

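Polyadenylated RNA from mouse lung was sequenced on the DNBseq platform, with 1 library per treatment group. The authors used HISAT 2.0.4 for mapping to GRCm38.p6, Bowtie2 2.2.5 for mapping to the reference gene set and RSEM 1.2.8 for expression. The deposited table gives for each library an estimated count of reads and a normalized value. The deposited normalized values were taken as FPKM, a unit inferred here from the ratio of reads to value. The 8 columns with means of 2 libraries each were left out. Nothing was averaged, and no multimapping rule or strand setting is given in the sources used here.

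Groups were taken from the labels of the libraries. Estimated counts were rounded to whole reads, and exact Clopper-Pearson intervals at 95% for ratios, and exact Poisson intervals for levels, were computed with SciPy 1.17.1 under Python 3.11.15. A count of 0 allows 3 reads, 1.71e-05% of the vehicle library. Reads are not independent molecules, so the intervals cover counting error only. Differences of log2(FPKM + 1) were compared over genes that reached 1 FPKM in either library. The interval procedure was tested on simulated data. Coordinates and promoters came from RefSeq for GRCm38.p6, in which 99.4% of the identifiers were found.

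The members and all gene lists were chosen with earlier results of these data known. The genes named are the 10 members, up to 4 genes per list with the largest difference in any comparison and at least 1 FPKM in a library, and the 5 genes nearest in profile to each set. Genes named beyond that rule, as undetected markers, neighbours of a member or further members of a list, were chosen after their values were seen. Alternatives were the sign of a difference, a 1.5-fold threshold, rescaling by the median ratio over 12728 genes, reads divided by the library total, a mean of at least 1 FPKM, a pseudocount of 0.1 and no filter on low values.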

Additional observations from a re-analysis of the deposited data

Results flagged for a closer look

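In 3 of the 10 genes, amiodarone and vehicle on the one hand and the combination and dabigatran on the other differed beyond counting error in opposite directions. Msln stood at 0.613 of vehicle with amiodarone and at 1.37 of dabigatran with the combination. The corresponding ratios were 0.513 and 1.65 for Slurp1 and 0.813 and 1.13 for Krt19. Among all 13536 genes with at least 1 FPKM in a library, 545 (4.03%) showed such opposite directions. The difference between these ratios was not tested, since each group had 1 library, and the set was chosen for genes that were high with the combination relative to amiodarone, so that this share is a description of chosen genes. Groups of 1 library do not allow a search for outlying samples.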

How the results depend on the processing

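The ratios of the members stayed within their counting intervals after rescaling by the median ratio and with reads divided by the library total, in all 80 values computed. The counts of members beyond counting error depended on the rule. At 1.5-fold, amiodarone against vehicle gave 0 higher and 4 lower members, dabigatran against vehicle 0 higher and 0 lower, and the combination against dabigatran 2 higher. By sign alone, dabigatran against vehicle gave 4 higher and 6 lower, the combination against amiodarone 1 lower, and the combination against dabigatran 4 lower. With reads divided by the library total, the combination against dabigatran gave 1 lower, Lrrn4 at 0.910. The other 30 counts were within 1.5 times the reported ones. A stricter rule calls fewer members by its construction. Of 61 medians, 5 moved. None of a gene list changed sign, whereas over all genes rescaling by the median ratio took the median from 0.001 to -0.001 for dabigatran against vehicle and from 0.031 to -0.004 for the combination against amiodarone. With a pseudocount of 0.1 the mesothelial members had -1.09 for amiodarone against vehicle and 1.22 for the combination against amiodarone, and the remaining 3 moved without a filter on low values. Leaving out Gpm6a and Ptgis, an alternative chosen after seeing the data, kept the direction of the wider mesothelial median. No paired analysis was possible because each group had 1 library. Leaving out a replicate was impossible for the same reason, so that nothing here separates treatment from mouse. Depth limited Krt5, Krt15 and Wt1, and also Ivl, Tgm3 and Slurp2.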
